A study of Mus musculus with 1 sample.

Results

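Membrane transporters that carry glucose, amino acids and monocarboxylates such as lactate were examined in 1 line of cultured mouse lung cancer cells. The genes were chosen by name alone, as those whose symbol in the array's annotation begins with Slc1a, Slc2a, Slc3a, Slc5a, Slc6a, Slc7a, Slc16a, Slc36a, Slc38a or Slc43a followed by a digit, on probe sets that name 1 gene. This gave 101 genes on 191 probe sets, out of 18193 genes on 34945 such probe sets. Of the 101 genes, 4 carry such a symbol without being transporters: Slc2a4rg-ps, Slc6a19os, Slc7a6os and Slc36a1os.

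The cells were the sample labelled KR Primary, a line derived from a KR tumor of the B6/J strain. The series title names kras tumor-derived lines, but the labels do not spell out KR, nor whether the line is a clone. The cells grew in RPMI1640 medium with serum, without further treatment, and total RNA was taken shortly before confluence. With 1 sample on 1 Affymetrix array there was neither a control group nor a replicate, and therefore no replicate spread and no test.

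Cells take up glucose by facilitated diffusion through the Slc2a family, or with sodium through part of the Slc5a family, and monocarboxylate transporters of the Slc16a family move lactate together with protons. Amino acids enter through sodium-driven carriers (Slc1a, Slc6a and Slc38a), through facilitated carriers for cationic amino acids, and through exchangers built from an Slc7a light chain and an Slc3a heavy chain. In tumor cells, glucose uptake, lactate release, glutamine uptake and cystine uptake are the best known tasks of these proteins.

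Each probe set gives a brightness in arbitrary units. Equal amounts of 2 transcripts can give unequal brightness, so each gene was judged against background, and a brighter gene need not have more RNA. Medians over many genes are given below as a description. Background came from 124 probe sets of 111 genes for keratin-associated proteins and for receptors of smell, pheromones and bitter taste. Their 95th percentile, 16.8, is called the line, and their highest signal, 60.6, the upper limit. A gene counted as above a threshold when 1 or more of its probe sets exceeded it, and its level is that of its highest probe set. The upper limit rests on 1 probe set, and the next highest background signal was 42.2. Epithelial markers were high, with all 7 above the upper limit and signals from 1150.2 to 7600.2. Among 34 markers of lung epithelial, fibroblast, leukocyte, endothelial, neural, red and liver cells, 7 exceeded the line, and none exceeded the upper limit. Of the 5 lung epithelial markers, Sftpb (28.9) and Sftpc (21.1 and 5.49) passed the line. Foxj1 (9.02), Scgb1a1 (1.38) and Nkx2-1 (7.66), the defining transcription factor of lung epithelium, did not. These markers thus show an epithelial culture, but they do not show the lung origin given in the label.

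Of the 101 transporter genes, 49 (48.5%) were above the line, where 63.3% of all genes were. The upper limit was passed by 27 (26.7%), beside 47.5% of all genes. Another 22 lay between the thresholds and 52 were not above the line. The median signal over these genes was 15.5, beside 48.3 over all genes, a difference of -1.64 on the log2 scale. Counted by probe set, 41.4% of 191 passed the line and 22.5% the upper limit, beside 60.9% and 41.1% of all probe sets. Among the 246 other solute carrier genes on the array, 64.6% passed the line and 47.2% the upper limit, with a median signal of 47.9, values close to those of all genes. With 1 sample, these differences could not be tested, and in RNA of a whole culture fewer cells with a transcript and less transcript per cell cannot be told apart.

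**Figure D1:**
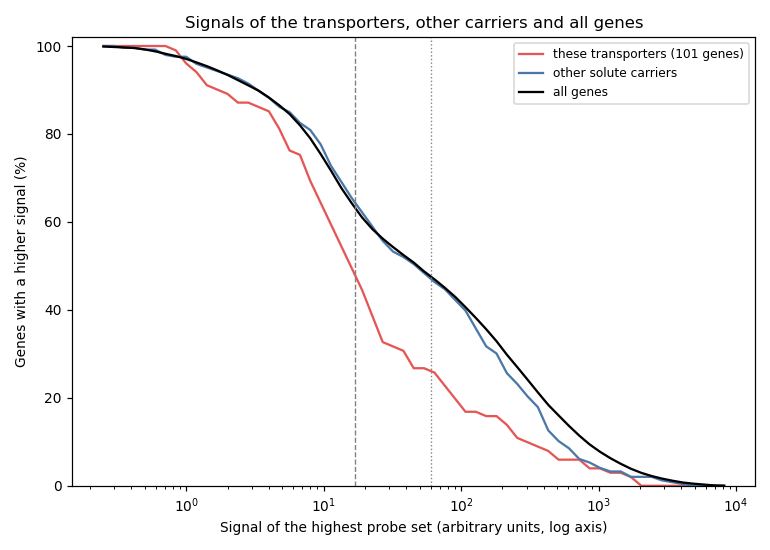
Share of genes (vertical axis, percent) whose highest probe set exceeds the signal on the horizontal log axis, for the 101 transporter genes, the 246 other solute carriers and all 18193 genes. The dashed and dotted lines mark 16.8 and 60.6, where 48.5% and 26.7% of the transporter genes lay higher, beside 63.3% and 47.5% of all genes.

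The number of probe sets per gene sets part of such counts, because more probe sets give more chances to pass. Among genes with 1 probe set, 20 of 50 transporters (40%) and 48.4% of all genes passed the line. With 2 probe sets these shares were 51.6% of 31 and 72.4%, with 3 they were 80% of 10 and 82.3%, and with 4 or more 50% of 10 and 89.0%. The share of the transporters was thus below that of all genes with 1, with 2 and with 4 or more probe sets. With 3 probe sets the shares were nearly equal. None of these differences was tested, and the classes with 3 and with 4 or more probe sets hold only 10 transporter genes each.

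**Figure D2:**
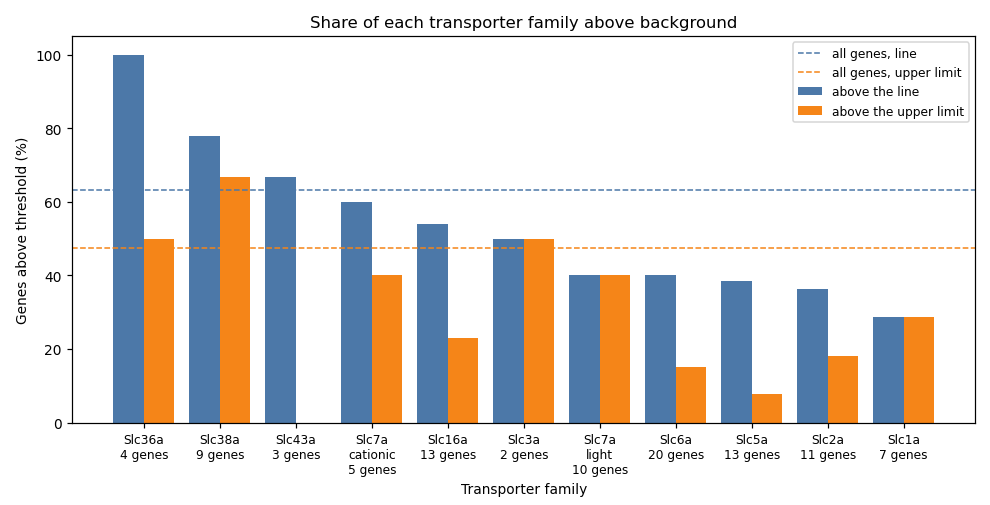
Share of genes that passed the line (blue) and the upper limit (orange) in each of 11 transporter families, with the number of measured genes under each name; dashed lines give the shares over all genes, 63.3% and 47.5%. The Slc36a, Slc38a and Slc43a families reach or exceed the share of all genes at the line, and Slc38a, Slc36a and Slc3a at the upper limit.

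The families differed widely. At the line, only 3 of 11 families had a share at or above that of all genes, namely Slc36a (4 of 4 genes), Slc38a (7 of 9) and Slc43a (2 of 3). The Slc38a family, sodium-coupled carriers of glutamine and other neutral amino acids, also had 6 of 9 genes above the upper limit. With every probe set required to pass, only 2 of these 9 remained above the upper limit and 4 above the line. Under that rule 27.3% and 47% of all genes did, shares near those of Slc38a and not to be told from them on 9 genes. The 9 genes have 27 probe sets, and this rule is harder to meet with more probe sets. Shares of families were not matched for the number of probe sets. Slc1a had 2 of 7 genes above the line, Slc2a 4 of 11, Slc5a 5 of 13, Slc6a 8 of 20, the Slc7a light chains 4 of 10, Slc3a 1 of 2, Slc16a 7 of 13 and the cationic branch of Slc7a 3 of 5. Requiring every probe set lowered the counts above the line to 4 for Slc16a, 4 for Slc6a, 2 for Slc5a, 1 for the cationic Slc7a branch and 1 for Slc43a. With the 99th percentile of background as the line, they were 2 for Slc36a, 2 for Slc2a, 2 for Slc5a, 4 for Slc6a and 0 for Slc43a. Of all genes, 52.7% passed that higher line. Families of 2 to 5 genes give coarse shares.

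**Figure D3:**
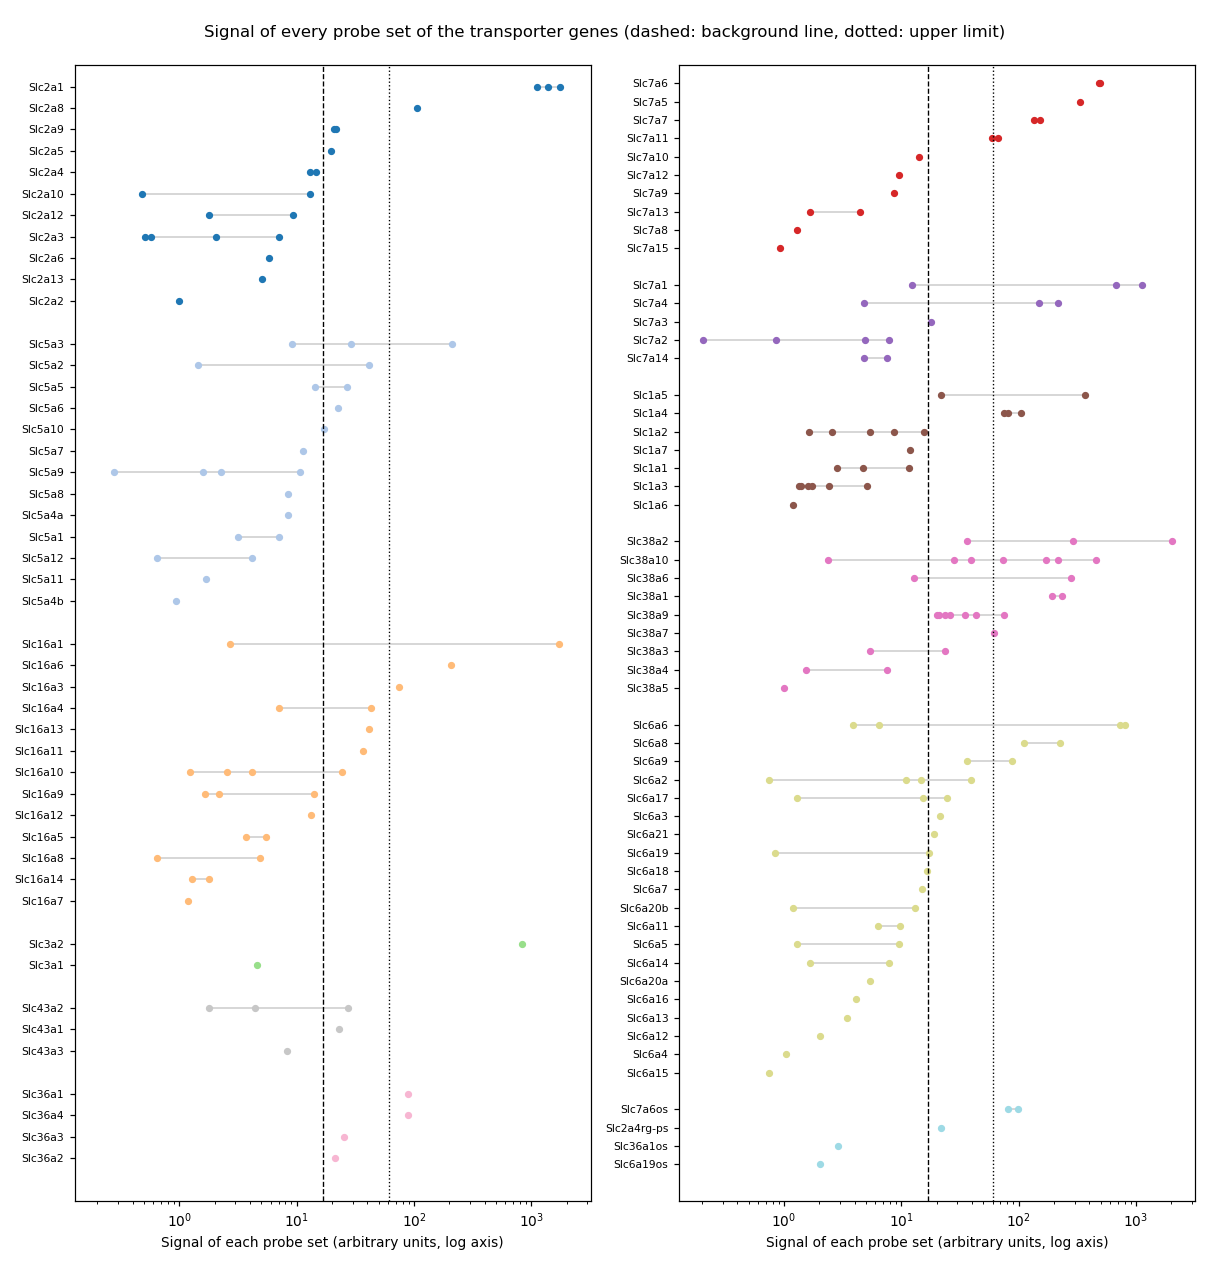
Signal of each probe set (points, log axis in arbitrary units) of all 101 genes, grouped by family and ordered within it by the highest probe set; gray lines join the probe sets of 1 gene. The dashed and dotted lines mark the background line (16.8) and the upper limit (60.6), and the signals range from 0.203 for Slc7a2 to 2019 for Slc38a2.

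Glucose facilitators were represented by Slc2a1. This gene encodes GLUT1, the carrier of basal glucose uptake in most dividing cells, and its 3 probe sets read 1743, 1373 and 1108, all far above the upper limit. Slc2a8, which encodes the mostly intracellular GLUT8, read 107 on its only probe set. No other Slc2a gene exceeded the upper limit. Slc2a9, whose product carries urate, read 21.4 and 20.7, and Slc2a5, the fructose carrier gene, 19.4, values that background probe sets also reached. Slc2a3, encoding the high-affinity GLUT3 of neurons, had all 4 probe sets between 0.509 and 7.09. Slc2a4, the insulin-responsive GLUT4 gene, read 14.5 and 13.1, and Slc2a2, the GLUT2 gene of liver and pancreatic beta cells, 0.989. None of these 3 passed the line.

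Of the sodium-coupled Slc5a family, only Slc5a3 was above the upper limit. It encodes a myo-inositol carrier that serves osmotic balance, and its 3 probe sets read 211, 29.1 and 9.15, 1 of them below the line. The sodium-glucose cotransporter genes of gut and kidney gave no clear signal. Slc5a1 read 7.12 and 3.17, and the probe sets of Slc5a2 read 40.9 and 1.43, the higher of which has a name ending in _s_at, a type that can match several transcripts. Slc5a6, for the vitamins biotin and pantothenate, read 22.6, and Slc5a5, the iodide carrier gene of the thyroid, 26.7 and 14.2. Slc5a8, a sodium-coupled carrier of monocarboxylates, read 8.43 and was not above the line. Slc5a10 at 17.0 was the gene just above the line, and Slc6a18 at 16.6 the gene just below it.

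Monocarboxylate carriers of the proton-coupled kind were divided. Slc16a1 encodes MCT1, which moves lactate and pyruvate in either direction, and it read 1713 on one probe set and 2.69 on the other. The pair differed by 9.31 on the log2 scale, the widest gap among the transporter genes with probe sets on both sides of the line. Slc16a3, encoding the lactate exporter MCT4, read 74.5 on its only probe set, above the upper limit. Slc16a7 (MCT2) at 1.19 and Slc16a8 (MCT3, of the retinal pigment epithelium) at 4.89 and 0.638 were not above the line. Thus 2 of these 4 genes passed, both of them above the upper limit.

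Elsewhere in the Slc16a family, Slc16a6, which encodes a carrier linked to the export of ketone bodies, read 208. Slc16a10, for aromatic amino acids, passed the line on 1 of 4 probe sets, at 24.5. Slc16a4 at 42.5, Slc16a13 at 41.3 and Slc16a11 at 36.6 also lay between the thresholds. Slc16a4 was the gene just below the upper limit, and Slc38a7 at 62.1 the one just above it.

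Heteromeric amino acid exchangers showed 1 of their 2 heavy chains. Slc3a2, encoding the 4F2 heavy chain also known as CD98, read 837 on its only probe set, whereas Slc3a1, encoding the heavy chain rBAT of kidney and gut, read 4.57. Of 6 light chains that pair with Slc3a2, 4 were above the upper limit. Slc7a6, encoding y+LAT2, read 489.9 and 486, Slc7a5, encoding the leucine carrier LAT1, 335, and Slc7a7, encoding y+LAT1, 152 and 136. Slc7a11, the light chain of the cystine and glutamate exchanger xCT, read 66.5 and 59.7, so that its pair of probe sets lay on either side of the upper limit. The other two, Slc7a10 at 14.1 and Slc7a8, encoding LAT2, at 1.30, were not above the line. Slc7a9 and Slc7a13, which pair with Slc3a1, read at most 8.65 and 4.44 and were not above it either.

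Carriers of cationic amino acids passed the upper limit in 2 of 5 genes. Slc7a1, encoding CAT1, the widespread arginine and lysine carrier, read 1128, 681 and 12.5. Slc7a4, a relative without clear transport activity of its own, read 218, 150.4 and 4.84. In both genes the third probe set was below the line. Slc7a3, encoding CAT3, read 18.1, between the thresholds. All 4 probe sets of Slc7a2, the CAT2 gene induced in macrophages and liver, were at or below 7.80.

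In the Slc1a family the neutral amino acid exchangers and the glutamate transporters were separated. Slc1a5, encoding the glutamine exchanger ASCT2, read 368 and 21.8, and Slc1a4, encoding ASCT1, read 106, 81.3 and 75.4, so that every probe set of both genes was above the line. None of the 5 glutamate transporter genes was above it. The highest of them was Slc1a2, the main glial glutamate carrier, with 5 probe sets from 1.64 to 15.5. Slc1a3, another glial carrier, had 6 probe sets from 1.35 to 5.13, and Slc1a1, the glutamate carrier of neurons and kidney, read 11.7, 4.71 and 2.84.

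Sodium-coupled neutral amino acid carriers of the Slc38a family had the highest share of genes above the upper limit, 6 of 9. These 9 genes have 27 probe sets. Over all genes, the share above the upper limit was 32.6% with 1 probe set and 54.8% with 2. It was 67.2% with 3 and 76.4% with 4 or more, so the family's share is not set apart from its number of probe sets. On every probe set, 2 of 9 passed the upper limit, beside 27.3% of all genes. Slc38a2, encoding SNAT2, a carrier induced when amino acids run low, read 2019, 289 and 36.1 on its 3 probe sets, all above the line. Slc38a1, encoding SNAT1, read 235 and 194, both above the upper limit. Slc38a6 read 282 and 12.7, on either side of the line. Slc38a10 had 7 probe sets, 6 of them past the line and 4 past the upper limit, with a range from 2.36 to 456. Slc38a3 and Slc38a4, known best from liver, and Slc38a5 read at most 23.8, 7.50 and 1.01.

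Carriers known from lysosomes gave mixed signals. Slc38a9 encodes an arginine-dependent activator of the growth kinase complex mTORC1, and its 7 probe sets read 75.7, 43.6, 34.8, 26.2, 23.6, 20.9 and 20.3. All of them passed the line, but only the highest passed the upper limit. Slc38a7, which carries glutamine and asparagine out of the lysosome, read 62.1. The proton-coupled carriers Slc36a1 and Slc36a4 read 88.6 and 87.9, and their relatives Slc36a3 and Slc36a2 25.4 and 21.3. The 4 Slc36a genes have 1 probe set each. Slc7a14, a lysosomal relative of the cationic carriers, read 7.52 and 4.78 and was not above the line.

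The Slc43a family, facilitated carriers, stayed below the upper limit. Slc43a2, encoding the leucine carrier LAT4, read 27.1, 4.44 and 1.77, and Slc43a1, encoding LAT3, 22.9. Slc43a3, a purine nucleobase carrier gene, read 8.21 and was not above the line.

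Among the 20 Slc6a genes, which take up neurotransmitters, osmolytes and amino acids with sodium and chloride, 3 were above the upper limit. Slc6a6, for taurine, read 803, 732, 6.53 and 3.85, with a pair of probe sets high and a pair below the line. Slc6a8, for creatine, read 227 and 110.3, and Slc6a9, for glycine, 87.3 and 36.4. The rest of the family was near background. Of the 3 monoamine transporter genes, Slc6a2 (noradrenaline) passed the line on 1 of 4 probe sets at 39.2, Slc6a3 (dopamine) read 21.5, and Slc6a4 (serotonin) 1.04. None of the 3 measured GABA transporter genes, Slc6a11, Slc6a12 and Slc6a13, was above the line, with a highest signal of 9.68. Slc6a14, a broad amino acid carrier of mucosal epithelia, read 7.83 and 1.66. Slc6a19, the neutral amino acid carrier of gut and kidney, read 17.2 and 0.842.

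Of the 4 genes that are not transporters, Slc7a6os, which lies beside Slc7a6, read 98.4 and 80.5, both above the upper limit. Slc2a4rg-ps read 21.9, and Slc36a1os (2.91) and Slc6a19os (2.05) were not above the line. Without these 4 genes, 47 of 97 (48.5%) exceeded the line and 26 (26.8%) the upper limit.

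On a single array the only spread within a gene is that between its probe sets. Probe sets can differ in brightness for equal amounts of RNA, so this spread does not measure replicate error. Over the 51 genes with 2 or more probe sets, signals within a gene had a median SD of 1.68 on the log2 scale, beside 1.45 over the 9010 such genes of the array. Probe sets lay on both sides of the line in 16 of the 51 (31.4%), beside 32.9% over the array. Among those 16 genes, the 6 widest gaps between the highest and the lowest probe set were those of Slc16a1 (9.31), Slc6a6 (7.70), Slc38a10 (7.60), Slc7a1 (6.50), Slc6a2 (5.71) and Slc7a4 (5.49), all on the log2 scale. Among the 19 genes with several probe sets that passed the upper limit, 7 passed it on every probe set and 7 on 1 only. Those with every probe set above it were Slc1a4, Slc2a1, Slc6a8, Slc7a6, Slc7a6os, Slc7a7 and Slc38a1. Requiring every probe set to pass left 33 genes (32.7%) past the line and 15 (14.9%) past the upper limit, beside 47% and 27.3% of all genes. Another 8 genes passed the upper limit on their only probe set.

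Promoter sequence gave a property that the choice of genes did not use. The RefSeq promoter table of GRCm38.p6, with windows of 250 bases before to 50 after a start site, held 97 windows of 74 of the 101 genes. CG dinucleotides, which are dense in CpG island promoters, had a median of 15.5 per window for transporters above the upper limit (28 windows of 20 genes), 20 for those between the thresholds (19 windows of 15 genes) and 7 for those not above the line (50 windows of 39 genes). Over all measured genes the same medians were 22, 14 and 6, so that the rise from the lowest class was array-wide. Windows of 1 gene can overlap and are not independent. In the highest class, Slc7a7 alone gave 5 windows, with 5 to 13 CG dinucleotides. The order of the medians 15.5 and 20 rests on counting windows, and it need not hold when each gene counts once.

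**Figure D4:**
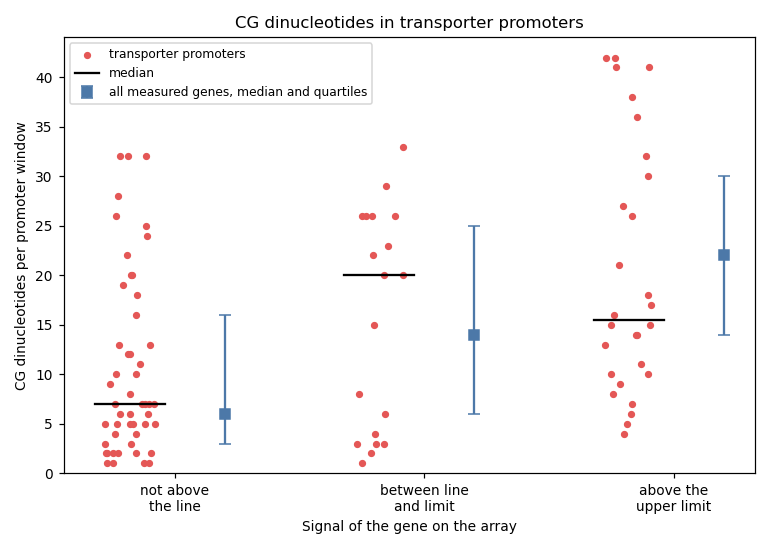
CG dinucleotides per promoter window (vertical axis) of the transporter genes, by the signal of the gene on the array; red points are windows, black bars their medians (7, 20 and 15.5), and blue squares with bars the medians and quartiles over all measured genes. Windows of genes above the upper limit held from 4 to 42 CG dinucleotides, so the classes overlap. A gene with several windows counts several times.

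The 120 bases before the start site are shown for the gene with the highest and the gene with the lowest signal among those with a window in Slc38a, Slc2a and Slc16a, the families of the 3 highest signals, as examples of promoters with many and few CG dinucleotides, which are in capitals. Other families ran the other way, as given after the sequences.
Slc38a2, chr15:96699729-96699848, minus strand: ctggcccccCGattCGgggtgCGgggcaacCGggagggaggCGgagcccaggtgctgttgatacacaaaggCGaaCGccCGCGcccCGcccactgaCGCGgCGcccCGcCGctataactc
Slc38a5, chrX:8271261-8271380, plus strand: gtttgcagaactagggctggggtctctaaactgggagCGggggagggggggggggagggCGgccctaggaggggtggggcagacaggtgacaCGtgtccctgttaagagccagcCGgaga
Slc2a1, chr4:119108625-119108744, plus strand: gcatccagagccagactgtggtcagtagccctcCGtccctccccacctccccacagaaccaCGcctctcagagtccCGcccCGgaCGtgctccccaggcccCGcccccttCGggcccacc
Slc2a2, chr3:28697783-28697902, plus strand: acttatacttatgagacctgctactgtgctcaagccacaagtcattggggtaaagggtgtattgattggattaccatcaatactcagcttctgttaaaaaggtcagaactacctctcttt
Slc16a1, chr3:104638544-104638663, plus strand: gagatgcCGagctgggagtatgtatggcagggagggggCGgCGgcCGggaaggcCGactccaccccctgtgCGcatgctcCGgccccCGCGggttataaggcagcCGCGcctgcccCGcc
Slc16a14, chr1:84935084-84935203, minus strand: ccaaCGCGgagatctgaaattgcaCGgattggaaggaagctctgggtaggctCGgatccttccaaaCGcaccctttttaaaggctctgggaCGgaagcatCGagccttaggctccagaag

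In whole windows, CG dinucleotides numbered 41 for Slc38a2 and 10 for Slc38a5, 18 for Slc2a1 and 2 for Slc2a2, and 42 for Slc16a1 and 13 for Slc16a14. In each of the 11 families, the gene with the highest and the gene with the lowest signal were compared, among genes with a window. By the median of each gene's windows, the former had more CG dinucleotides in 8 families and fewer in 3. Those 3 were Slc1a (21 for Slc1a4 and 32 for Slc1a6), Slc6a (10 for Slc6a9 and 28 for Slc6a4) and the cationic Slc7a genes (17 for Slc7a1 and 18 for Slc7a14). Slc1a5 and Slc6a6, with the highest signals of their families, had no window and were not compared. The same holds for Slc6a15, Slc16a7, Slc36a2 and Slc43a3, with the lowest signals of theirs. In Slc43a the counts were close (27.5 for Slc43a2 and 26 for Slc43a1), and both genes lay between the thresholds. Slc7a11, which was above the upper limit on 1 of 2 probe sets, had 4, the lowest count among the windows of genes above that limit.

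The windows were also searched on both strands for short motifs of transcription factors that are known to act on such genes. TGATGNAA, part of the element bound by ATF4 when amino acids are scarce, was in 4 of 28 windows (14.3%), of 3 of 20 genes, above the upper limit, in 1 of 19 between the thresholds and in 0 of 50 not above the line, beside 3.97% of all 32851 windows and 2.10% of the 9137 windows of all genes above the upper limit. TGACNNNGC, the core of the antioxidant element bound by NFE2L2, was in 8 of 28 windows (28.6%), of 6 of 20 genes, 1 of 19 and 5 of 50. It was in 12.4% of all windows and 14.7% of those of all genes above the upper limit. CACGTG, the E-box bound by MYC, was in 3 of 28 (10.7%), 2 of 19 and 7 of 50, beside 7.15% and 10.5%, so that its share matched that of all genes above the limit. ACGTG, the core bound by HIF1A, which CACGTG contains, was in 11 of 28 (39.3%), of 9 of 20 genes, 2 of 19 and 13 of 50, beside 19.6% and 26.9%. These counts are small, windows of the same gene share bases, and a match is not a bound site.

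The matches to TGATGNAA in genes above the upper limit are shown in capitals, as the element closest to amino acid supply, with their flanking bases.
Slc7a11, chr3:50443641-50443691, minus strand: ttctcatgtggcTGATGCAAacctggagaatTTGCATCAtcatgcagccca
Slc1a4, chr11:20332698-20332729, minus strand: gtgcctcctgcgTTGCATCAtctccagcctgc
Slc7a7, chr14:54418066-54418097, minus strand: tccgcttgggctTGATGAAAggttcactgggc
Slc7a7, chr14:54417926-54417952, minus strand: tagaagcTGATGCAAcagcttccccga

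Slc7a11 held a pair of matches in opposite orientation, whose first bases lay 66 and 47 bases before its start site. Its signals of 66.5 and 59.7 were near the upper limit.

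Genes that work with the transporters were mostly above background. Over 6 lists of partner genes, 70 of 73 exceeded the line and 61 the upper limit, beside 63.3% and 47.5% of all genes. The lists hold widely expressed genes, and no list was tested against others.

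**Figure D5:**
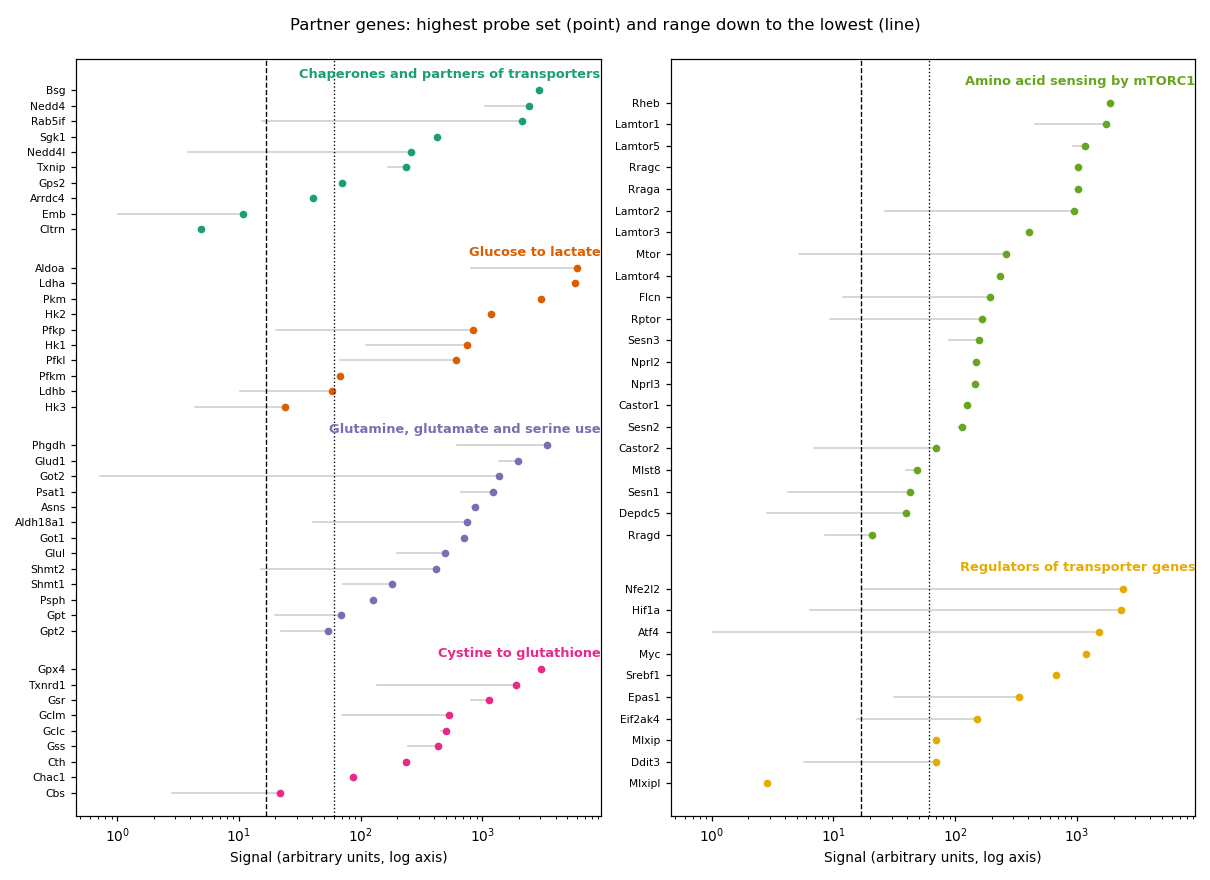
Signal (log axis, arbitrary units) of the highest probe set (points) and range down to the lowest (gray lines) of 73 partner genes in 6 lists. The dashed and dotted lines mark 16.8 and 60.6; Mlxipl, Cltrn and Emb are the 3 genes left of the line.

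Among chaperones and partners, 8 of 10 passed the line. Bsg, encoding basigin, which brings MCT1 and MCT4 to the cell surface, read 2918, and Nedd4, a ubiquitin ligase, 2412. Emb, encoding embigin, another monocarboxylate transporter partner, had 3 probe sets at or below 10.9, and Cltrn, encoding collectrin, a partner of the Slc6a19 product, read 4.90. Of the 3 carriers named with these partners, Slc16a1 and Slc16a3 were above the upper limit, whereas Slc6a19 was at 17.2.

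All 10 measured genes from glucose to lactate exceeded the line, and 8 exceeded the upper limit. The highest were Aldoa, encoding aldolase A, at 5964 and Ldha, a lactate dehydrogenase subunit gene, at 5742. Ldhb, encoding the other main subunit, read 58.1 and Hk3, a hexokinase gene of blood cells, 23.9. The genes of glutamine, glutamate and serine use exceeded the line in all 13 cases and the upper limit in 12. Phgdh, the first enzyme of serine synthesis, read 3375 on the highest of 4 probe sets, all above the upper limit, and Glud1, encoding glutamate dehydrogenase, 1957. The lowest were the alanine aminotransferase genes Gpt at 69.5 and Gpt2 at 53.7.

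Genes that lead from cystine to glutathione exceeded the line in all 9 cases and the upper limit in 8. Gpx4, which reduces lipid peroxides, read 3063, and Txnrd1, encoding thioredoxin reductase, 1891. The lowest were Chac1, a glutathione-degrading enzyme gene, at 86.4 and Cbs, of the transsulfuration pathway, at 21.9. Slc7a11, the cystine carrier that feeds this pathway, stood at 66.5.

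All 21 measured genes of amino acid sensing by mTORC1 exceeded the line, and 17 exceeded the upper limit. Rheb, the activator of mTORC1, read 1865, and Lamtor1, a lysosomal anchor of the Rag GTPases, 1734. Depdc5, of the GATOR1 complex, read 39.1 and Rragd, one of the Rag GTPase genes, 20.9. Of the 10 measured regulators of transporter genes, 9 were above both thresholds on at least 1 probe set. On every probe set, 5 of the 10 passed the line and 3 the upper limit, near the 47% and 27.3% of all genes. Nfe2l2, the antioxidant regulator NRF2, read 2410.3 and 17.4 on its 2 probe sets. Hif1a, the hypoxia regulator, read 2293 on the highest of 4 probe sets and 6.37 on the lowest, and 3 passed the line. Atf4, the amino acid response regulator, read 1527 on the highest of 3 probe sets, of which 2 passed the line. Ddit3 read 69.0, and Mlxipl, the glucose-sensing factor ChREBP, 2.85. The levels of these regulators' transcripts do not give their activity.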

How the data were processed

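The labels' protocols describe total RNA, biotin labelling and an Affymetrix array, here 1 array of 1 sample. The authors deposited linear signal intensities, 1 for each probe set. The submitters' processing notes name Affymetrix Expression Console; its algorithm, scaling and background step are not given in these sources. Scanner files and detection calls were not used here, so dim values are known only as the summarised intensity. Of 45101 probe sets, 64 controls, 932 with several names and 9160 without a name here were left out. Symbols were updated by gene ID with a RefSeq table (34741 probe sets; 204 kept theirs). Signals were taken to log2 for medians and spreads, without an offset.

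The genes, lists, background set, thresholds, alternatives and naming rule were chosen with earlier results of these data known. Named genes were those above the upper limit, a list of well-known transporters, the genes beside a threshold, the 6 widest gaps, and the 2 highest and 2 lowest of each of 6 lists of partner genes (chaperones, metabolism, amino acid sensing and regulators); the few others named for a family were chosen after their values were seen. Alternatives changed the percentile, the background set, the probe sets admitted, the rule that combines probe sets, the offset and the genes counted. A single array limits the precision. The functions that call genes were checked on simulated data, in which planted genes were raised far above values drawn from background. That checks the code, not the calls of real genes near the thresholds. Scripts ran under Python 3.11.15 with pandas 2.3.3, numpy 2.4.6 and matplotlib 3.10.9.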

Additional observations from a re-analysis of the deposited data

How the results depend on the processing

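Under each alternative tried, the share of transporter genes above the line stayed below that of all genes, from 30.7% beside 52.7% (99th percentile) to 52.5% beside 66.6% (90th percentile), and so did the share above the upper limit. With the 99th percentile of background as the line (37.3), 31 genes were above it in place of 49, and 1 of 11 families in place of 3 reached the share of all genes. With olfactory and vomeronasal receptors alone as background the upper limit fell to 19.2, and 45 genes (44.6%, beside 60.8% of all genes) were above it in place of 27. With every probe set required, 15 were. With the second-highest background probe set as the limit, an alternative added with earlier results known, 28 were. An offset of 16 before log2 changed the difference in medians from -1.64 to -1.03. The other 24 of 29 values so recomputed stayed within 1.5 times, and none changed direction. Of 121 recomputed counts by family, 26 moved by over 1.5 times, most of them counts of a few genes. Without _x_at and _s_at probe sets Slc5a2 read 1.43, and by the median of their probe sets Slc38a3 (14.6), Slc43a2 (4.44) and Slc6a19 (9.02) were not above the line. No paired analysis was possible because there is 1 sample. Genes between 16.8 and 60.6 cannot be told from background on this array.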

Other observations

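In the gene order of the RefSeq table, 11 pairs of these genes are direct neighbours, and in 8 of them both genes were on the same side of the line. With 48.5% of the 101 genes above the line, pairs that are not neighbours would often share a side too. Some pairs have a gene in common, and the pairs include Slc7a6 with Slc7a6os, which is not a transporter. Whether neighbours share a side more often than other pairs was not tested. Slc38a1 (235) and Slc38a2 (2019) stand beside Slc38a4, a carrier known best from liver, which read 7.50. Slc16a11 and Slc16a13 read 36.6 and 41.3, and the row of Slc36a3, Slc36a2 and Slc36a1 read 25.4, 21.3 and 88.6. Slc6a12 and Slc6a13, neighbouring carriers of betaine and GABA, read 2.02 and 3.43. Of probe sets that name several genes, 1 names a transporter, Slc1a2 together with Gm13872, and it read 3.12, below the line.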
